A study of Homo sapiens with 6 samples.

Results

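The BCL2 family controls apoptosis, and 10 of its genes were followed here in ovarian cancer cells that differ in STING1 alleles and were exposed to cGAMP. The members were chosen by gene symbol, as 3 pro-survival genes (BCL2L1, MCL1 and BCL2A1), the 2 pro-death effectors BAX and BAK1, and 5 pro-death BH3-only genes (BCL2L11, BBC3, PMAIP1, BID and BIK). The choice was made with earlier results of these data known, so counts of members and contrasts between classes describe this set alone. All 10 were found among the 60498 genes of the table, and 9 of the 10 averaged at least 10 counts per library, as did 15126 genes in all. BCL2A1 was below that level.

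RNA-seq of poly(A) RNA was performed on SKOV3, an established human ovarian cancer cell line. The WT/HAQ line is the parent, heterozygous for the STING1 allele that the authors name WT and for HAQ, a haplotype of linked amino acid substitutions. The WT/- and HAQ/- lines are single clones in which paired CRISPR guides flanking STING1 disrupted the other allele, so that each kept 1 allele. They were made by lentiviral delivery, puromycin selection and limiting dilution, steps that the parent is not described as having passed. Each line gave 1 control library and 1 library of cells exposed to 2′3′-cGAMP, the cyclic dinucleotide that activates STING1, at 10 μg/mL for 30 min in a digitonin permeabilization buffer and harvested after a further 4 h in fresh medium. Whether control cells received that buffer is not given in the sources used here. The 6 libraries held from 12444791 (WT/- with cGAMP) to 17608427 (WT/HAQ control) counts. With 1 library per condition, a difference within a line has no replicate check, and the 95% intervals given below cover counting error only. A clone and its genotype cannot be told apart.

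Proteins of the BCL2 family decide whether the outer mitochondrial membrane is permeabilized, the step at which cytochrome c leaves mitochondria and caspases are switched on. The effectors form pores in that membrane, the pro-survival proteins hold effectors and BH3-only proteins in check, and the BH3-only proteins bind pro-survival partners or engage the effectors directly. STING1 signals from the endoplasmic reticulum through the kinase TBK1 to IRF3 and NF-kB, which drive interferon and inflammatory genes.

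The edited gene and the cGAMP response were examined first. STING1, in the parent, had a normalized count (the count divided by the library's effective size relative to the geometric mean of the 6 libraries) of 669 in the control and 1780.2 with cGAMP. It had 353 and 553 in WT/-, against 213 and 403 in HAQ/-. Both clones were thus below the parent in either condition, and each line was higher with cGAMP than without. The reference genes of the interferon response IFNB1, IFIT1, IFIT2 and ISG15 were raised in every line, 4 of 4, where raised and lowered mean at least 1.5-fold (0.585 on the log2 scale). IFIT1, an interferon-induced RNA-binding protein, stood at 104, 234 and 152 in the WT/HAQ, WT/- and HAQ/- controls and at 27733, 25400 and 8042 with cGAMP. IFNB1, the interferon beta gene itself, had 4.42 and 1259 in the parent, 1.87 and 2583 in WT/-, against 5.23 and 16.4 in HAQ/-. By edgeR's quasi-likelihood test all 4 were called higher, with fitted log2 fold changes from 5.93 to 8.16. The highest was that of IFNB1, whose values of 8.15, 9.85 and 1.65 in WT/HAQ, WT/- and HAQ/- averaged 6.55. With WT/- left out none of the 4 passed (Benjamini-Hochberg adjusted p from 0.171 to 0.329). IFNB1 alone of the 4 was also lost without WT/HAQ (adjusted p = 0.0760) and with no line term (0.171). Of the defining markers of epithelial and ovarian cancer cells, 9 of 9 were detected in each library, ERBB2 being the most abundant. Their summed level was 7269 CPM (counts scaled to the library total) in the WT/HAQ control and 5862 with cGAMP, against 5546 and 4383 in WT/- and 6201 and 5851 in HAQ/-. Single markers, named here after their values were seen, differed by more than this sum, which ERBB2 dominates. The keratin KRT19 had normalized counts of 5630 and 3605 in WT/HAQ, 364 and 369 in WT/-, against 414 and 343 in HAQ/-, and was thus far lower in both clones. KRT7, another keratin, had log2 fold changes with cGAMP of -1.002, -0.66 and -0.36 in WT/HAQ, WT/- and HAQ/-. In the same order CDH1 had 0.55, -0.02 and 0.39, EPCAM 0.07, 0.10 and 0.13, and MUC16, at low counts, 1.23, 1.52 and 0.74. The medians over all 9 markers were -0.28, -0.15 and -0.03. The 5 leukocyte markers summed to between 2 and 8 counts in a library and the 3 endothelial markers to between 11 and 42. The 4 fibroblast markers, led by COL1A1, summed to 85.9 and 99.8 CPM in WT/HAQ, 124 and 133 in WT/-, against 138 and 143 in HAQ/-, and the part of these marker differences in the family's values was not tested. In bulk RNA, fewer cells expressing a gene and less of its RNA per cell cannot be told apart.

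The question for the family was which members respond to cGAMP and whether the pro-death side moves differently from the pro-survival side. In WT/HAQ, 3 members were raised, PMAIP1, BBC3 and BCL2L11, where 12.8% of all analysed genes were raised. A single member, BCL2L1, was lowered there, beside 12.3% of all genes. In WT/-, the raised members were again PMAIP1, BBC3 and BCL2L11 (3, with 11.9% of all genes), and BID was lowered (1, with 8.77% of all genes). In HAQ/-, PMAIP1 was raised (1, with 6.75% of all genes) and 0 members were lowered, beside 5.76% of all genes. All members raised at least 1.5-fold were thus BH3-only genes, and the lowered ones came from the pro-survival and the BH3-only classes. With 1.2-fold in its place, MCL1 (1.27-fold) and BAK1 (1.23-fold) were raised as well in WT/-. So were BIK (1.37-fold) in WT/HAQ, and BBC3 (1.35-fold) and BCL2L11 (1.33-fold) in HAQ/-. Ranked from the highest fold down, MCL1 and BAK1 were only numbers 2890 and 3253 of 15099 genes in WT/-. BIK was number 2435 of 15114 in WT/HAQ, and BBC3 and BCL2L11 were 1420 and 1474 of 15072 in HAQ/-. The share of all genes past 1.2-fold is not given, so these additions have no background beside them. Because each line gave a control and a treated library, the mean effect of cGAMP was tested with the line as a block. By edgeR's quasi-likelihood test with Benjamini-Hochberg adjustment over 15126 genes, 2 of 9 tested members, PMAIP1 and BBC3, rose with cGAMP, beside 2.27% of all genes. In the same edgeR test 0 members fell, beside 0.959% of all genes. At an unadjusted p under 0.05, 1 member was lower (BCL2L1), beside 2065 of all 15126 genes, and DESeq2 called 0 members lower, beside 583 genes. Higher at that unadjusted p were 4 members, beside 1755 of all 15126 genes, and DESeq2 called 3 members higher, beside 772 genes. This test treats the lines as the replicates, so that a difference in response between lines enters its error. The mean log2 fold changes given with it are edgeR's fitted values, which can differ from the plain average over lines.

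**Figure D1:**
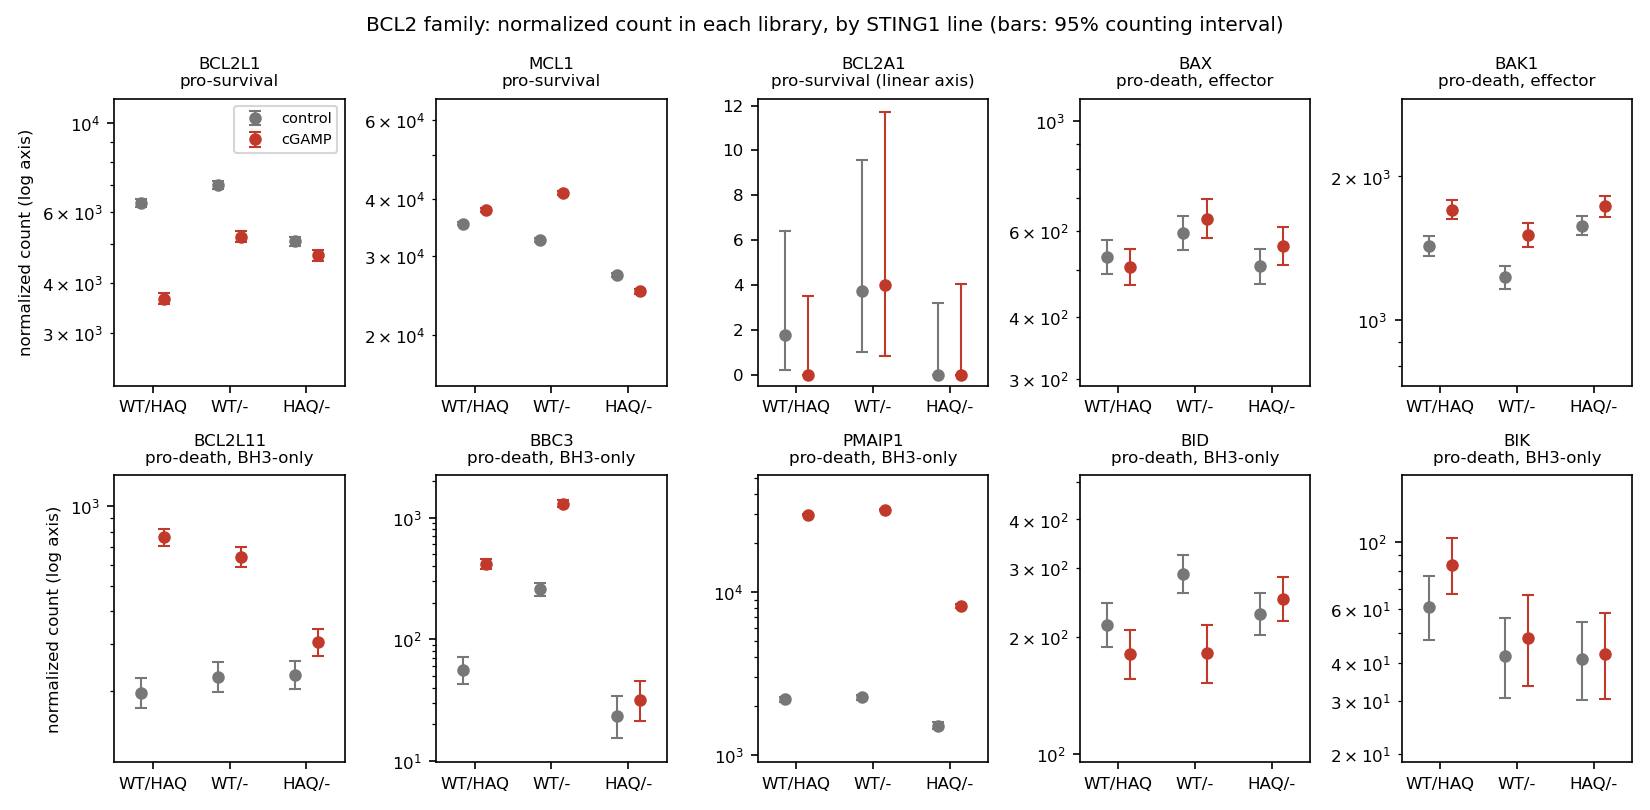
Normalized count of each of the 10 members (vertical axis, logarithmic except for BCL2A1) in the control (grey) and cGAMP (red) library of each line, with 95% counting intervals. PMAIP1 stands at 29895.5 and 32121 in the treated WT/HAQ and WT/- libraries and at 8223 in the treated HAQ/- library, while BAX lies between 507 and 634 in all 6 libraries.

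PMAIP1 encodes NOXA, a BH3-only protein that binds MCL1 and promotes its degradation. It lies on the plus strand at chr18:59899996-59904305 (GRCh38, GENCODE 44 annotation). Its normalized count was 2199 in the WT/HAQ control and 29895.5 with cGAMP, 2260.3 and 32121 in WT/-, against 1516 and 8223 in HAQ/-. Every treated library lay above every control library, and the treated HAQ/- library lay well below the other treated ones. The fold changes were 13.6 in the parent (log2 3.76, 95% interval 3.71 to 3.82), 14.2 in WT/- (3.83, 3.77 to 3.89) and 5.42 in HAQ/- (2.44, 2.36 to 2.51). Ranked from the highest fold down, PMAIP1 was number 142 of 15114 genes in the parent, 116 of 15099 in WT/- and 101 of 15072 in HAQ/-. By edgeR's quasi-likelihood test with Benjamini-Hochberg adjustment, PMAIP1 rose by a mean log2 fold change of 3.35 (SE 0.32, adjusted p = 0.0130, higher in 3 of 3 lines, adjusted p from 9.41e-32 to 0.210 over the 9 alternatives). The call was lost with WT/- left out (log2 3.11, adjusted p = 0.210) and with no line term (log2 3.555, adjusted p = 0.0671). Leaving out WT/- left 0 genes called by edgeR in either direction out of 15126, with 1894 at an unadjusted p under 0.05.

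BBC3 encodes PUMA, a BH3-only protein that binds all the main pro-survival proteins, and lies on the minus strand at chr19:47220822-47232766. Its normalized count was 55.7 in the WT/HAQ control and 413 with cGAMP, 258 and 1302 in WT/-, against 23.6 and 31.7 in HAQ/-. The lines were ordered WT/-, WT/HAQ and HAQ/- in both conditions, and the intervals of the HAQ/- pair overlapped. The WT/- control was higher than both HAQ/- libraries and lower than the treated WT/HAQ library. The fold changes were 7.42 in the parent (log2 2.89, 2.51 to 3.27), 5.06 in WT/- (2.34, 2.15 to 2.53) and 1.35 in HAQ/- (0.43, -0.32 to 1.18), the last resting on 27 and 29 counts. The log2 fold changes of the 3 lines averaged 1.89. With edgeR's quasi-likelihood test and Benjamini-Hochberg adjustment BBC3 rose by a fitted log2 fold change of 2.25 (SE 0.37, adjusted p = 0.0491, higher in 3 of 3 lines, adjusted p from 5.13e-05 to 0.584 over the 9 alternatives). This call stood close to the threshold. It was lost without WT/HAQ (log2 1.91, adjusted p = 0.159), without WT/- (2.01, 0.394), with no line term (2.37, 0.584), with DESeq2 size factors (2.25, 0.0533) and with the count minimum set to a mean of 50 (2.26, 0.0566).

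BCL2L11 encodes BIM, a BH3-only protein that binds pro-survival proteins and can engage BAX directly, and lies on the plus strand at chr2:111119378-111168444. Its normalized count was 197 in the WT/HAQ control and 761 with cGAMP, 227 and 642 in WT/-, against 230.3 and 306 in HAQ/-. The intervals of the 3 controls overlapped, and of the treated libraries HAQ/- was the lowest. Fold changes came to 3.86 in the parent (log2 1.95, 1.74 to 2.16), 2.83 in WT/- (1.502, 1.28 to 1.72) and 1.33 in HAQ/- (0.41, 0.17 to 0.65). The mean log2 fold change of 1.30 (SE 0.30, higher in 3 of 3 lines) did not pass edgeR's quasi-likelihood test with Benjamini-Hochberg adjustment (adjusted p = 0.0792, from 0.00024 to 0.399 over the 9 alternatives). It passed with DESeq2 (adjusted p = 0.000862), with no filter (0.00971) and without HAQ/- (0.00024). The exons of BCL2L11 share 727 bases with those of MIR4435-2HG, a long noncoding RNA on the opposite strand. That gene had normalized counts of 477 and 314 in WT/HAQ, 387 and 341 in WT/-, against 423 and 432 in HAQ/-. As the strand setting of the counting is not given in the sources used here, reads of the shared bases cannot be told apart.

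Because these 3 BH3-only genes were the raised members, the sequence around their start sites is shown, from 250 bases before to 50 bases after the start, as given by RefSeq on GRCh38.p14. Of the 10 members, 8 had an entry in the RefSeq promoter table, and MCL1 and BIK had none. The windows are 5′ to 3′ on the gene's strand: chr18:59899746-59900045 (plus) for PMAIP1, chr19:47232618-47232917 (minus) for BBC3 and chr2:111120664-111120963 (plus) for BCL2L11. Capitals mark matches to the interferon response element GAAANNGAAA or the NF-kB motif GGGNNNTTCC, where N is any base, each searched on both strands.
PMAIP1: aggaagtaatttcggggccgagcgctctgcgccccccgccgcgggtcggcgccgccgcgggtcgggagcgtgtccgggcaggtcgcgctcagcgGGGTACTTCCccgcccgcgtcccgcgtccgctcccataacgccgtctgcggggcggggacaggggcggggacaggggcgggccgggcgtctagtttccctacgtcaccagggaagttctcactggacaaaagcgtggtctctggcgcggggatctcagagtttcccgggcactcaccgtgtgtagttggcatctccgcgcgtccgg
BBC3: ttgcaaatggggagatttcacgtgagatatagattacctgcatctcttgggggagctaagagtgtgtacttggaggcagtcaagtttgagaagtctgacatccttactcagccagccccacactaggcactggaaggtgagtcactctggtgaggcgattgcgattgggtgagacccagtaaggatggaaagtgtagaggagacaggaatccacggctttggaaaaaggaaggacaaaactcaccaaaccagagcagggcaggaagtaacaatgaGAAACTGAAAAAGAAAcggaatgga
BCL2L11: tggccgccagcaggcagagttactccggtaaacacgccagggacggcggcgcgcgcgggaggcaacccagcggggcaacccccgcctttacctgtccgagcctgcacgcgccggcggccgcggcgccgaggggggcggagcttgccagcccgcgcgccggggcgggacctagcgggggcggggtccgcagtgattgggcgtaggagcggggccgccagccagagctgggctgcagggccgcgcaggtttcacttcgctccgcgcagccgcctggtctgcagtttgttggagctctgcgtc
The PMAIP1 window held 1 match to the NF-kB motif, GGGTACTTCC, whose first base lies 156 bases before the start. The BBC3 window held 2 overlapping matches to the interferon response element, beginning at bases 26 and 32 when the start is counted as base 1. In the BCL2L11 window neither set of letters was found. Among the 8 members with a window, 2 held the interferon element (BBC3, and BCL2A1 on the opposite strand) and 1 the NF-kB motif. Counted by gene in the same way, 4.38% of the 27305 genes in the table held the interferon element and 7.83% the NF-kB motif, and of all 35116 promoter windows of 300 bases 3.57% and 6.52% did. A match describes the letters alone, and binding was not measured.

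BID and BIK, the other BH3-only members, differed less between conditions. BID, which caspase-8 cleaves to link death receptors to mitochondria, lies on the minus strand at chr22:17734138-17774770. Its normalized count was 215 in the WT/HAQ control and 181 with cGAMP, 290.2 and 182 in WT/-, against 229 and 251 in HAQ/-. WT/- thus had the highest control and, with WT/HAQ, the lowest treated value. The log2 fold change was -0.25 in the parent (-0.52 to 0.02), -0.68 in WT/- (-0.97 to -0.39) and 0.13 in HAQ/- (-0.13 to 0.38). Lower in 2 of 3 lines, BID had a mean log2 fold change of -0.26 (SE 0.17) that did not pass edgeR's quasi-likelihood test with Benjamini-Hochberg adjustment (adjusted p = 0.414, from 0.122 to 0.914 over the alternatives). That mean came to -0.05 without WT/- and to -0.46 without HAQ/-. BIK, a BH3-only protein of the endoplasmic reticulum, lies on the plus strand at chr22:43110750-43129712. It had normalized counts of 61.0 and 83.6 in WT/HAQ, 42.0 and 48.1 in WT/-, against 41.0 and 42.7 in HAQ/-. These are low levels, from 36 to 88 counts. The log2 fold change of BIK was 0.46 in the parent, with an interval just above 0 (0.0028 to 0.91), 0.20 in WT/- (-0.43 to 0.82) and 0.06 in HAQ/- (-0.55 to 0.67), and at this depth a difference was not detectable in WT/- or HAQ/-. Higher in 3 of 3 lines, its mean of 0.25 (SE 0.20) did not pass edgeR's quasi-likelihood test with Benjamini-Hochberg adjustment (adjusted p = 0.504, from 0.402 to 0.898 over the alternatives), and it was 0.13 without WT/HAQ.

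The effectors BAX and BAK1, which form the pores, varied little. BAX lies on the plus strand at chr19:48954815-48961798 and had normalized counts of 530.4 and 507 in WT/HAQ, 594 and 634 in WT/-, against 508 and 559 in HAQ/-. Control and treated intervals overlapped in each line. Its log2 fold changes were -0.07 (-0.23 to 0.10) in the parent, 0.09 (-0.08 to 0.27) in WT/- and 0.14 (-0.03 to 0.31) in HAQ/-. For BAX the mean of 0.06 (SE 0.08, higher in 2 of 3 lines) did not pass edgeR's quasi-likelihood test with Benjamini-Hochberg adjustment (adjusted p = 0.714, from 0.605 to 0.966 over the alternatives). The BAX mean was 0.12 without WT/HAQ and 0.01 without HAQ/-. BAK1, on the minus strand at chr6:33572547-33580293, had normalized counts of 1432 and 1704 in WT/HAQ, 1229 and 1507 in WT/-, against 1576 and 1731 in HAQ/-. Each treated library lay above its own control, but the HAQ/- control lay above the treated WT/- library. The log2 fold changes of BAK1 were 0.25 (0.15 to 0.35), 0.29 (0.18 to 0.41) and 0.13 (0.04 to 0.23), with intervals above 0 in 3 of 3 lines. Its mean of 0.23 (SE 0.07) did not pass edgeR's quasi-likelihood test with Benjamini-Hochberg adjustment (adjusted p = 0.131, from 0.0883 to 0.599 over the alternatives).

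Among the pro-survival members, BCL2L1 encodes BCL-XL, which restrains BAX, BAK1 and several BH3-only proteins, and lies on the minus strand at chr20:31664452-31723989. Its normalized count was 6331 in the WT/HAQ control and 3649 with cGAMP, 7030.1 and 5208 in WT/-, against 5082 and 4681 in HAQ/-. The treated library was the lower one in each line, and the treated WT/HAQ library was the lowest of the 6. BCL2L1 had log2 fold changes of -0.79 in the parent (-0.85 to -0.74), -0.43 in WT/- (-0.49 to -0.38) and -0.12 in HAQ/- (-0.18 to -0.06). Lower in 3 of 3 lines, its mean log2 fold change of -0.45 (SE 0.14) did not pass edgeR's quasi-likelihood test with Benjamini-Hochberg adjustment (adjusted p = 0.127, from 0.00586 to 0.428 over the 9 alternatives). It passed without HAQ/- (log2 -0.62, adjusted p = 0.00586) and with no filter (-0.45, 0.0382), while the mean was nearer 0 without WT/HAQ (-0.28, 0.365). ABALON, a long noncoding RNA on the opposite strand, shares 1735 exon bases with BCL2L1, 41.3% of its exons. It had from 33 to 99 counts in a library, against at least 3839 for BCL2L1. As the strand setting of the counting is not given, reads of these shared bases cannot be told apart either.

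MCL1 encodes a short-lived pro-survival protein that sequesters NOXA, BIM and BAK1, and lies on the minus strand at chr1:150560895-150579738. Its normalized count was 35314.5 in the WT/HAQ control and 37884 with cGAMP, 32505 and 41203 in WT/-, against 27165 and 25014 in HAQ/-. The HAQ/- libraries were the lowest and the treated WT/- library the highest. Its log2 fold change was 0.10 in the parent (0.08 to 0.12), 0.34 in WT/- (0.32 to 0.36) and -0.12 in HAQ/- (-0.14 to -0.09). None of these reached 1.5-fold, and the sign in HAQ/- was opposite to that in the other lines. With a mean log2 fold change of 0.11 (SE 0.10), higher in 2 of 3 lines, MCL1 did not pass edgeR's quasi-likelihood test with Benjamini-Hochberg adjustment (adjusted p = 0.558, from 0.0943 to 0.995 over the alternatives). Its mean was 0.0015 without WT/- and 0.22 without HAQ/-. MCL1 shares 328 exon bases with ADAMTSL4-AS1 and 43 with ADAMTSL4, and at 61 to 393 counts in a library both were far below MCL1, which had at least 22852. BCL2A1, which encodes the NF-kB-induced pro-survival protein BFL1 and lies on the minus strand at chr15:79960892-79971196, was at or near 0. It had 2 and 0 counts in WT/HAQ, 4 and 3 in WT/-, against 0 and 0 in HAQ/-. Each count of 0 allows up to 3 counts in that library. Only WT/- gave a ratio, of log2 0.10 (-1.89 to 2.10), so that a difference was not detectable at this depth.

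**Figure D2:**
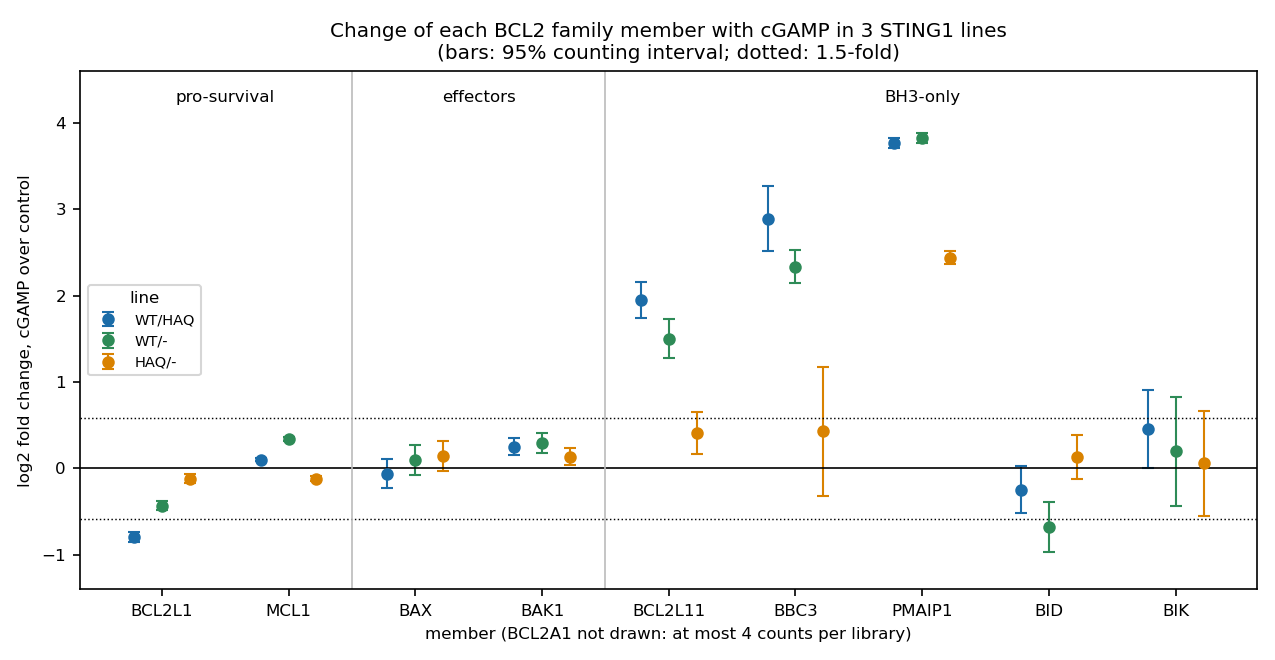
Log2 fold change of 9 members (vertical axis, cGAMP over control) in WT/HAQ (blue), WT/- (green) and HAQ/- (orange), with 95% counting intervals and dotted lines at 1.5-fold. BCL2L11, BBC3 and PMAIP1 lie above the upper line in WT/HAQ and WT/-, and PMAIP1 alone does so in HAQ/-.

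The classes were then set side by side. The medians and the sums below cover the chosen members alone and leave out other family genes. Of those left out, the BH3-only gene BMF had log2 fold changes of -1.59, -1.09 and -0.86 in WT/HAQ, WT/- and HAQ/-. HRK, another BH3-only gene, had 1.22, 2.13 and 0.22. The median log2 fold change of the 7 pro-death members was 0.46 in the parent, 0.29 in WT/- and 0.14 in HAQ/-. The medians of the 2 analysed pro-survival members were -0.35, -0.05 and -0.12 in the same order, and those of all analysed genes -0.01, 0.00 and -0.01. With 2 members a median is their midpoint. BCL2L1 and MCL1 had opposite signs in WT/HAQ (-0.79 and 0.10) and in WT/- (-0.43 and 0.34), so there it describes neither gene. Within the pro-death class, the 5 BH3-only members had medians of 1.95, 1.502 and 0.41 and the 2 effectors 0.09, 0.19 and 0.14. The BH3-only class was spread most widely, from -0.68 for BID to 3.83 for PMAIP1 in WT/-. The plot of the members among all genes shows the same values against their background.

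**Figure D3:**
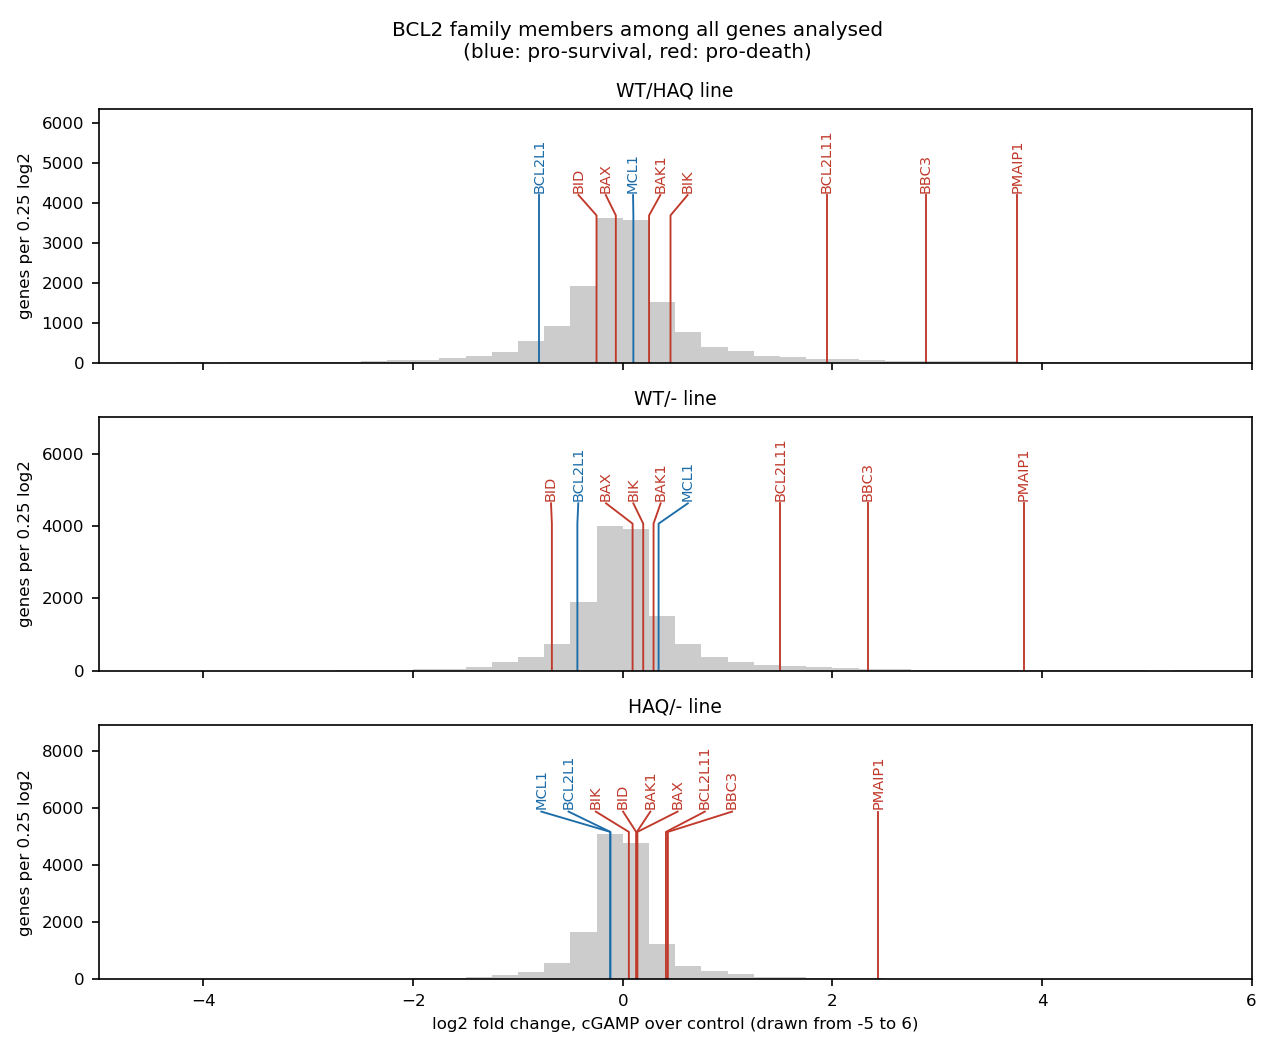
Distribution of the log2 fold change (horizontal axis, cGAMP over control) of all analysed genes in each line, as genes per bin of 0.25 (vertical axis), with the 9 analysed members drawn as lines, pro-survival in blue and pro-death in red. PMAIP1, BBC3 and BCL2L11 lie in the right tail in WT/HAQ and WT/-, at 3.76, 2.89 and 1.95 in WT/HAQ, while PMAIP1 alone stands apart in HAQ/-.

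Levels were compared between genes as normalized counts per kilobase of the canonical transcript. On that scale the summed pro-survival level was 11402 in the WT/HAQ control and 11008 with cGAMP, 10965 and 12459 in WT/-, against 8851 and 8151 in HAQ/-. The summed pro-death level was 2717 and 17709.5 in WT/HAQ, 2866 and 19372 in WT/-, against 2370.0 and 6068 in HAQ/-. Over the chosen members alone, the pro-survival sum was the larger in the controls. After cGAMP the pro-death sum was the larger in WT/HAQ and WT/- but not in HAQ/-. As a ratio of pro-survival to pro-death level, this was 4.20 and 0.622 in WT/HAQ, 3.83 and 0.643 in WT/-, against 3.73 and 1.34 in HAQ/-. With the union of all annotated exons as length, a choice made after seeing the data, the ratios were 3.56 and 0.463, 3.38 and 0.485, and 3.21 and 1.04, on the same side of 1 in each library. These are sums of RNA levels, and protein was not measured.

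**Figure D4:**
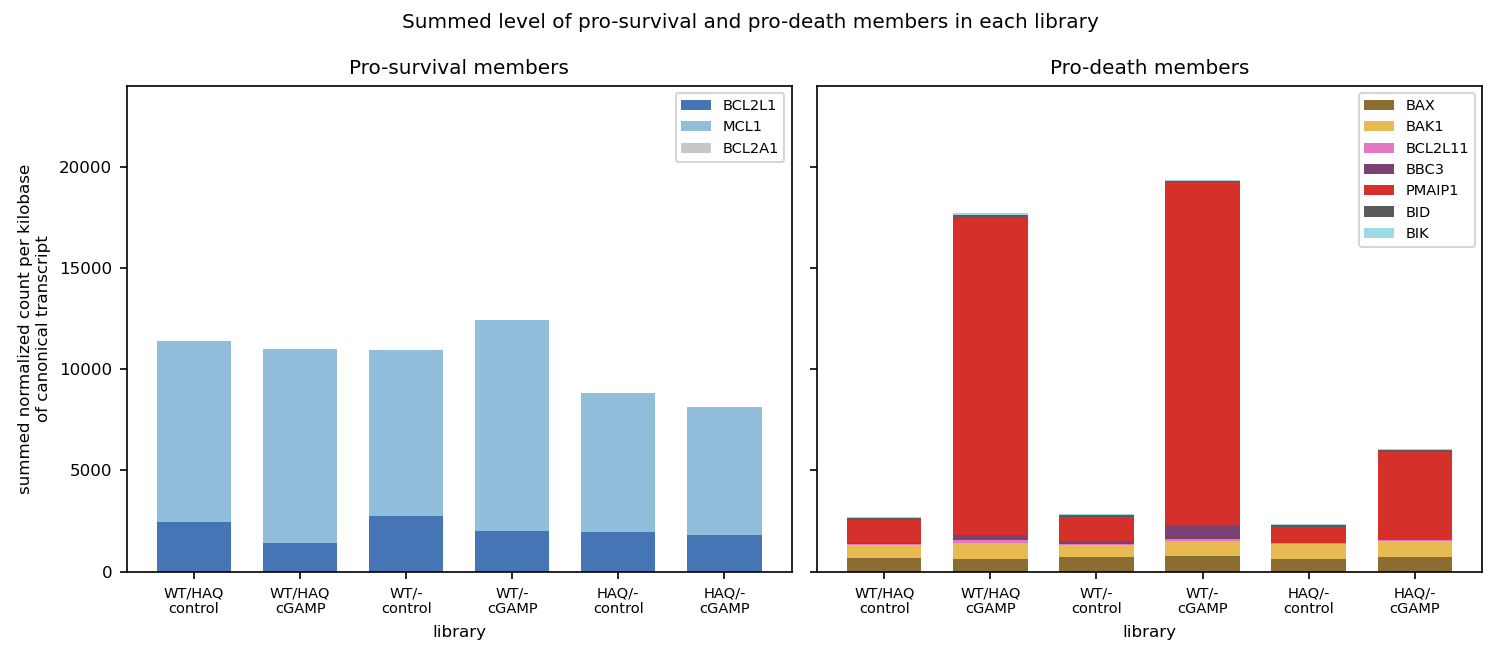
Summed normalized count per kilobase of canonical transcript (vertical axis) of the pro-survival (left) and pro-death (right) members in each library, stacked by member. PMAIP1 makes up most of the pro-death bar in the treated libraries, 88.9% in the parent, 87.3% in WT/- and 71.4% in HAQ/-.

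PMAIP1 carried most of the difference on the pro-death side. Its share of the pro-death level per kilobase was 42.6% in the WT/HAQ control and 88.9% with cGAMP, 41.5% and 87.3% in WT/-, against 33.7% and 71.4% in HAQ/-. The pro-death sum was 6.52-fold higher with cGAMP in the parent, 6.76-fold in WT/- and 2.56-fold in HAQ/-. Without PMAIP1 these folds were 1.26, 1.47 and 1.11, below 1.5 in each line. The remaining BH3-only genes alone were 2.35-fold higher in WT/HAQ, 2.67-fold in WT/- and 1.15-fold in HAQ/- on this scale, while the effectors, the larger part of what is left without PMAIP1, were at 1.07, 1.14 and 1.10. On the pro-survival side MCL1 made up 78.4% and 87.1% of the level in WT/HAQ, 75.0% and 83.7% in WT/-, against 77.7% in both HAQ/- libraries. The level of PMAIP1 per kilobase relative to that of MCL1 was 0.130 and 1.64 in WT/HAQ, 0.145 and 1.62 in WT/-, against 0.116 and 0.684 in HAQ/-. PMAIP1 was thus below MCL1 in every control and above it in the treated WT/HAQ and WT/- libraries. By union-of-exon length the treated ratios were 2.25, 2.22 and 0.936.

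Pairs of a BH3-only gene and a pro-survival partner were compared by the difference of their log2 fold changes. PMAIP1 exceeded MCL1 by 3.66 in the parent (3.60 to 3.73), 3.49 in WT/- (3.42 to 3.55) and 2.56 in HAQ/- (2.48 to 2.64). BCL2L11 exceeded MCL1 by 1.85 (1.63 to 2.06), 1.16 (0.94 to 1.38) and 0.53 (0.29 to 0.78) in the same order. BBC3 exceeded BCL2L1 by 3.69 (3.30 to 4.07), 2.77 (2.57 to 2.97) and 0.55 (-0.21 to 1.31). The last of these intervals, for BBC3 in HAQ/-, included 0. The BH3-only genes of these pairs are the 3 raised members, a choice that fixes the direction in WT/HAQ and WT/-. BID, which is in no pair, had a log2 fold change below that of MCL1 in WT/HAQ (-0.25 against 0.10) and WT/- (-0.68 against 0.34) and above it in HAQ/- (0.13 against -0.12).

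Whether the response of HAQ/- differed from that of the 2 lines with a WT allele was tested as an interaction term, a test chosen after seeing the data and with 1 residual degree of freedom. HAQ/- is 1 line with no replicate and is assumed to vary like the others, so that the errors rest on how far WT/HAQ and WT/- differ in response, as moderated by edgeR over all genes. Its p-values thus do not measure how another HAQ/- clone would vary. By edgeR's quasi-likelihood test with Benjamini-Hochberg adjustment, 1 of 9 members had a smaller log2 fold change in HAQ/-, beside 1.01% of all genes, and 4 were smaller at an unadjusted p under 0.05. In that edgeR test 0 members had a larger one, beside 0.172% of all genes, with 1 at an unadjusted p under 0.05. DESeq2 was not run for it, and the shares of all genes at an unadjusted p under 0.05 are not given for it. The member past the threshold was PMAIP1, with a difference of -1.36 (SE 0.15, adjusted p = 0.00536, from 3.75e-06 to 0.0157 over the 3 alternatives), smaller in HAQ/- than in 2 of 2 lines with a WT allele. BBC3 (-2.12, SE 0.46, adjusted p = 0.0883, from 0.0112 to 0.182) and BCL2L11 (-1.32, SE 0.26, adjusted p = 0.0611, from 0.00590 to 0.143) had negative estimates that did not pass. Both passed with the minimum set to a mean count of 1, and BCL2L11 also with a minimum of 50 (adjusted p = 0.0487). Between the individual lines, the PMAIP1 fold in WT/HAQ and in WT/- exceeded that in HAQ/- by log2 1.33 (1.23 to 1.42) and 1.39 (1.29 to 1.49), while WT/HAQ and WT/- differed from each other by -0.06 (-0.15 to 0.02). For BBC3, WT/HAQ exceeded HAQ/- by 2.46 (1.62 to 3.31) and WT/- exceeded it by 1.91 (1.13 to 2.69). For BCL2L1, the fold change in WT/HAQ lay below that in HAQ/- by a log2 difference of -0.68 (-0.76 to -0.60) and that in WT/- by -0.31 (-0.39 to -0.23). With an interaction estimate of 0.50 (SE 0.19, adjusted p = 0.425), BCL2L1 did not pass.

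The lines also differed before treatment. In the WT/- control 1 member, BBC3, was at least 1.5-fold higher than in the parent, as were 13.0% of all genes, and 0 members were lower, beside 9.87% of all genes. In the HAQ/- control 0 members were higher, beside 7.37% of all genes, and 1, again BBC3, was lower, beside 8.60% of all genes. BBC3 differed from the parent by log2 2.21 (1.82 to 2.60) in WT/- and -1.24 (-1.89 to -0.60) in HAQ/-. PMAIP1 differed from the parent by 0.04 in WT/-, an interval that included 0 (-0.04 to 0.12), and by -0.54 in HAQ/- (-0.62 to -0.45), short of 1.5-fold. MCL1 stood at -0.12 and -0.38 against the parent in WT/- and HAQ/-, and BCL2L1 at 0.15 and -0.32.

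Other genes of the pathway were taken from lists. Of 13 other BCL2 family genes 10 were analysed, and edgeR called 0 higher, beside 2.27% of all genes, and 1 lower, beside 0.959%. At an unadjusted p under 0.05, 3 were higher and 2 lower, beside 1755 and 2065 of all 15126 genes. DESeq2 called 1 higher and 1 lower, beside 772 and 583 of all genes. The gene that edgeR called lower was BMF, a BH3-only gene. It had normalized counts of 174 and 57.98 in WT/HAQ, 833 and 391 in WT/-, against 77.6 and 42.7 in HAQ/-. Like BBC3, BMF was highest in WT/- and lowest in HAQ/- in the controls, but its treated library was the lower one in each line. BMF fell by edgeR's quasi-likelihood test with Benjamini-Hochberg adjustment (log2 -1.19, SE 0.16, adjusted p = 0.0291, lower in 3 of 3 lines, from 3.98e-05 to 0.824 over the 9 alternatives). Its call was lost without WT/HAQ (log2 -1.02, adjusted p = 0.0586), without WT/- (-1.24, 0.345) and with no line term (-1.16, 0.824). Of 8 mitochondrial and degradation partners of the family, including the MCL1 ubiquitin ligase HUWE1, edgeR called 0 in either direction, beside 2.27% and 0.959% of all genes. An unadjusted p under 0.05 took 2 higher and 0 lower, and DESeq2 0 and 0, beside the numbers of all genes given above. The 12 p53 target genes likewise had 0 calls by edgeR in either direction (unadjusted p under 0.05 for 4 higher and 2 lower, DESeq2 2 and 2), again beside 2.27% and 0.959% of all genes. Raised and lowered p53 targets numbered 4 and 3 in WT/HAQ (beside 12.8% and 12.3% of all genes), 3 and 1 in WT/- (11.9% and 8.77%), against 1 and 0 in HAQ/- (6.75% and 5.76%).

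Genes whose pattern over the 6 libraries was nearest to that of the most responsive member of each class were found by Euclidean distance of centred log2 normalized counts among the 12087 genes averaging at least 50 counts. For PMAIP1 they were PARP14 (distance 0.56), GBP5 (0.57), TMEM229B (0.64), APOL6 (0.76) and ISG20 (0.76). PARP14, the nearest, had log2 fold changes of 3.74, 3.09 and 2.32 from WT/HAQ to WT/- and HAQ/-. For BCL2L1 they were CHD4 (0.11), USP3 (0.11), TMEM136 (0.12), RBMS1 (0.12) and HRH1 (0.13). CHD4 had log2 fold changes of -0.65, -0.42 and -0.15 in the same order.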

How the data were processed

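Poly(A) RNA of 6 SKOV3 libraries, 1 per line and treatment, was sequenced by the authors, who deposited expected counts per gene. The submitters' processing notes name STAR, RSEM and GRCh38 (hg38), while versions, annotation release and strand setting are not given in the sources used here. The expected counts were rounded to whole numbers, and totals ran from 12444791 to 17608427. Genes averaging at least 10 counts (15126 of 60498) were analysed in R 4.3.3 with edgeR 4.0.16, using TMM factors (0.940 to 1.05), a quasi-likelihood F test with the line as a block (2 residual degrees of freedom) and Benjamini-Hochberg adjustment at 0.05. The rest was computed in Python 3.11.15 (pandas 2.3.3, numpy 2.4.6, matplotlib 3.10.9, scipy 1.17.1). Folds within a line used a floor of 3 counts and 95% Wilson intervals, levels had exact Poisson intervals, and raised or lowered means at least 1.5-fold. Differences of log2 fold changes had normal intervals from the counts. Lengths and loci came from GENCODE 44 and promoter windows from RefSeq.

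Named genes were all members, genes of the lists called by edgeR or moved at least 1.5-fold one way in every line, and the 5 nearest genes of the member of each class with the largest mean absolute log2 fold change. The members and lists were chosen with earlier results of these data known. The interaction test and the union-of-exon length were chosen after seeing the data. Alternatives were DESeq2 1.42.0, its size factors, library totals alone, count minimums of 1, 50 and none, a floor of 10 counts, folds of 1.2 and 2, no line term, and each line left out. MARCHF5 and STING1 were found by Ensembl ID. The protein search for the BH3 motif was not run. A further list of apoptosis genes is not reported here.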

Additional observations from a re-analysis of the deposited data

Results flagged for a closer look

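The log2 fold change of PMAIP1 with cGAMP was smaller in HAQ/- than in the lines with a WT allele by an interaction term, at -1.36 (SE 0.15, adjusted p = 0.00536 by edgeR's quasi-likelihood test with Benjamini-Hochberg adjustment, from 3.75e-06 to 0.0157 over the 3 alternatives, smaller than in 2 of 2 lines), a test chosen after seeing the data. HAQ/- is 1 line with no replicate and adds nothing to the error of this test, which rests on the difference in response between WT/HAQ and WT/-, as moderated over all genes. The p-value does not measure how another HAQ/- clone would vary.

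The log2 fold changes of MCL1 had counting intervals on opposite sides of 0, at 0.10 in WT/HAQ and 0.34 in WT/- against -0.12 in HAQ/-. This difference in direction, seen with 1 library per condition, was not tested as such, and the interaction estimate for HAQ/- against the 2 lines with a WT allele was -0.34 (SE 0.15), with an adjusted p of 0.523 by edgeR's quasi-likelihood test with Benjamini-Hochberg adjustment.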

How the results depend on the processing

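Depth limits BCL2A1, with at most 4 counts in a library, BIK, and BBC3 in HAQ/-, and lines stand in for replicates. No alternative turned the sign of a member's fold within a line, and of 83 such alternative values 4 left their counting interval, all of them with library totals alone. Genes called higher by edgeR (344) numbered 772 with DESeq2, 583 at a mean count of at least 1, 943 with no filter, 58 with no line term, and from 0 to 1282 with a line left out. Those called lower (145) numbered 583, 431, 870 and 4 in the same order, and from 0 to 1307 with a line left out. The 0 in each direction came without WT/-, where edgeR had 1894 genes at an unadjusted p under 0.05 (DESeq2 was not run without a line), the highest counts without HAQ/-, and 136 and 50 were called without WT/HAQ. Of the members, 2 were called higher, against 1 with DESeq2 size factors, 1 at a mean count of at least 50, 0 with no line term and from 0 to 3 with a line left out. Lower calls went from 0 to 1 (BCL2L1) with no filter, and lay between 0 and 1 with a line left out. At 2-fold, 0 members were lowered in WT/HAQ and 0 in WT/-, in place of 1 each. At 1.2-fold, 4 in place of 3 were raised in WT/HAQ (BIK added), 5 in place of 3 were raised (MCL1 and BAK1 added) and 2 in place of 1 lowered (BCL2L1 added) in WT/-, and 3 in place of 1 were raised in HAQ/- (BBC3 and BCL2L11 added). Shares of all genes at 1.2-fold and 2-fold are not given here. From the highest fold down, BIK was number 2435 of 15114 genes in WT/HAQ, and BBC3 and BCL2L11 were 1420 and 1474 of 15072 in HAQ/-. From the lowest up, BCL2L1 was number 2007 of 15099 in WT/-. For the interaction, whose alternatives were chosen after seeing the data, 153 genes with a smaller fold in HAQ/- became 96 with DESeq2 size factors and 351 at a mean count of at least 1, and 26 with a larger fold became 6 and 162. The 1 member with a smaller fold became 3 at a mean count of at least 1 and 2 at a mean count of at least 50. With a WT-allele line left out no residual degrees of freedom were left for that test. Some of these settings also differ in the number of genes or lines tested, and the cause of the changes was not tested.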

Other observations

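Several listed genes other than the 10 members were chosen for description after their values were seen. HRK, a BH3-only gene, had normalized counts of 21.2 and 49.4 in WT/HAQ, 49.5 and 216 in WT/-, against 24.4 and 28.5 in HAQ/-. WT/- was the highest line in both conditions. BNIP3, a mitochondrial protein with a BH3-like stretch, had 269 and 813 in WT/HAQ, 398 and 895 in WT/-, against 258 and 379 in HAQ/-. PAX8, a transcription factor that marks ovarian cancer cells, had 6751 and 1966 in the parent, 9391 and 4969.9 in WT/-, against 4613 and 3276 in HAQ/-, each treated library being the lower one. MUC16, the mucin gene behind CA-125, had 33 and 72 counts in the parent, 7 and 14 in WT/-, against 1 and 4 in HAQ/-. Of the 9 epithelial markers edgeR called 0 in either direction, beside 2.27% of all genes higher and 0.959% lower. An unadjusted p under 0.05 took 1 higher and 3 lower, beside 1755 and 2065 of all 15126 genes. DESeq2 called 0 and 2, beside 772 and 583 of all genes.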
